A study of Homo sapiens with 6 samples.

Results

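The genes described here are 39 genes of sterol synthesis, sterol uptake and export, fatty acid synthesis and their control by SREBP transcription factors. They were chosen by name from these pathways, not by a threshold on the values, but with earlier results of these data known. Each stood on 1 row of the table of 58735 genes. Raji is a human B-cell line from a Burkitt lymphoma, and the cells of both groups carried a GFP and luciferase reporter (GFP-ffluc). Cells were kept overnight at 37 °C in medium with 10% serum, with 1 nM bryostatin-1 in the treated group or with DMSO, its solvent, in the control group. Bryostatin-1 is a macrocyclic lactone that binds protein kinase C. Polyadenylated RNA was measured in 3 libraries per group, and the question was which transcripts differ between bryostatin-treated and solvent-treated cells. Whether the 3 libraries of a group stem from different cultures is not stated by the labels; the spread behind each p-value is therefore that between libraries and may be technical.

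Cells build cholesterol from acetyl-CoA through the mevalonate pathway, whose farnesyl diphosphate feeds squalene and then the sterol ring, as well as the prenyl groups that anchor Ras proteins to membranes. SREBP proteins, the products of SREBF1 and SREBF2, are made as precursors in the endoplasmic reticulum membrane. When sterols are scarce, SCAP escorts them to the Golgi, where they are cut and released to switch on these enzymes. When sterols are abundant, INSIG proteins hold SCAP back, and oxysterols switch on export genes such as ABCA1 and ABCG1 through the LXR receptors. Dividing lymphocytes draw on both sterols and fatty acids for new membrane.

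Promoter sequence is shown for 5 members that the results turn on, because SREBP proteins act at promoters together with the factor NF-Y. The 200 bases before a RefSeq transcript start are given 5′ to 3′ on the gene's strand (GRCh38.p14). This start lies downstream of the outermost gene start in the annotation of the files, so the windows reach into the annotated gene, and those of PMVK and SC5D lie within it. For SC5D the first of its 2 RefSeq starts was used. Capitals mark a match, on either strand, to the sterol regulatory element core TCACNCCAC, to the E-box CACGTG or to the NF-Y box CCAAT, and no 2 of these matches overlap in the windows shown. The SREBF2 window lies at chr22:41832905-41833104, plus strand, INSIG1 at chr7:155297678-155297877, plus strand, MSMO1 at chr4:165327469-165327668, plus strand, SC5D at chr11:121292571-121292770, plus strand, and PMVK at chr1:154936720-154936919, minus strand.
SREBF2: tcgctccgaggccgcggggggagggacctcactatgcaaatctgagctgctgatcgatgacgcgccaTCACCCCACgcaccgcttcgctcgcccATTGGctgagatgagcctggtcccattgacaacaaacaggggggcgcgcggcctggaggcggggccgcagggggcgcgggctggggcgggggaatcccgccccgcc
INSIG1: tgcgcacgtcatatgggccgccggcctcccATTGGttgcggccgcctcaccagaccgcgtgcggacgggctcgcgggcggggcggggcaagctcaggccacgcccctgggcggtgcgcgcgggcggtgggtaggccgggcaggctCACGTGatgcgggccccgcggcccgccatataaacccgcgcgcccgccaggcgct
MSMO1: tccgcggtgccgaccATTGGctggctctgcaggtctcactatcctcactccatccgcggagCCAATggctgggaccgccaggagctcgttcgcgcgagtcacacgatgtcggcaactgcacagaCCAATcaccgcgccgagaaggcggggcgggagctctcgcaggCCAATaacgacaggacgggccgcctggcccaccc
SC5D: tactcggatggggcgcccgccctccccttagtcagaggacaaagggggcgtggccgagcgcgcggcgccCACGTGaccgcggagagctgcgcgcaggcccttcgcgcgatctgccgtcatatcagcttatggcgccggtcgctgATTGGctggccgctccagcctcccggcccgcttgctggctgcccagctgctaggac
PMVK: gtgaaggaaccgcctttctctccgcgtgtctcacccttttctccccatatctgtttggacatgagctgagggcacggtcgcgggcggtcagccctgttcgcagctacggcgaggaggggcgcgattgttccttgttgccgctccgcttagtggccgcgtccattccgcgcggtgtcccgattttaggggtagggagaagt

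Of the 39 members, 34 had at least 1 promoter in the RefSeq table, 48 promoters in all. ACAT2, FDFT1, SQLE, ABCG1 and FASN were not in it. Within 250 bases before the start, the sterol regulatory element core was found in 1 member promoter, that of SREBF2, where it begins at base -133 (2.08%), against 0.883% of all 35116 promoters. The NF-Y box was found in 28 of 48 member promoters (58.3%), against 32% of all promoters, and in 14 of the 16 synthesis enzymes with a promoter. The count of enzymes is by gene, where 1 of several promoters suffices. A matching share of all genes was not computed for it. PMVK and CYP51A1 were the 2 enzymes without it, and the PMVK window shown above holds none of the capitalised motifs. MVK and NSDHL each held the box at 5 places and MSMO1 at 4. In SREBF2 the NF-Y box begins at base -106, downstream of the sterol regulatory element core, and INSIG1 holds an NF-Y box at -170 and an E-box at -55. The E-box was found in 6 member promoters (12.5%, against 6.34% of all) and the GC box GGGCGG in 42 (87.5%, against 42.6% of all). Such matches describe these letters in these windows and say nothing of binding in Raji cells.

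Levels are given in FPKM, fragments scaled to gene length and library size, and the libraries held 19405370 to 24468270 reads on genes. The 7 B-cell markers summed to 929.5 to 1465 FPKM. Markers of monocytes and of epithelial and stromal cells summed to at most 1.01 and 0.727 FPKM, with S100A8, EPCAM, COL1A2 and ALB at 0 in every library. The T-cell markers other than TRAC summed to at most 0.346 FPKM, with CD2 at 0, while TRAC, the constant segment of the T-cell receptor alpha chain, ran from 3.12 to 13.5 FPKM. The 11071 genes that averaged 1 FPKM or more were tested, and 0 (0%) passed an adjusted p of 0.05 in limma, a linear model with pooled variances on log2(FPKM + 1), nor did any with voom weights on recovered reads. Before adjustment, p lay under 0.05 for 795 genes lower and 1159 genes higher with bryostatin, and scaling to TPM turned this to 1099 lower and 848 higher.

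Of the 39 members 36 were abundant enough to be tested, and 0 of them passed limma after adjustment over all genes, with voom weights as well. The differences lay mostly on one side. The log2 change, bryostatin minus DMSO, was below 0 for 30 of 36 tested members (83.3%), against 46.1% of all tested genes, and its median was -0.18 for members against 0.018 for all. Before adjustment, p lay under 0.05 in limma for 11 members that were lower with bryostatin (30.6%), against 7.18% of all genes in that direction. PMVK was the 1 member higher at that level (2.78%, against 10.5% of all). In 13 members every bryostatin library lay below every DMSO library (36.1%, against 10.7% of all), and in PMVK every bryostatin library lay above (against 12.9% of all). On the scale of log2(FPKM + 1), all changes except that of PMVK had a 95% interval within 2-fold either way. This scale shrinks the changes of weakly expressed genes. ABCG1 had a ratio of mean FPKM of 0.540, and a log2 change of -0.97 with voom weights, so the bound does not carry over to it. ABCG1 is among the 11 and the 13 lower members, but it reached the level for testing only through its DMSO libraries.

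The count of lower members depended on single libraries. Without DMSO replicate 3 it was 18, against 10.2% of all genes in the same fit, and without bryostatin replicate 2 it was 8, against 7.43% of all. It was 4 without DMSO replicate 2, against 6.12% of all, and 5 without bryostatin replicate 3, against 4.69% of all. Without DMSO replicate 1 it was 1 (2.78%), against 2.96% of all, and without bryostatin replicate 1 it was also 1, against 3.19% of all. By this count the members stood at the background in these fits. Log2 changes were still below 0 for 30 and 29 of the 36 members there, where the median of all genes was 0.017 and 0.014. The count at an unadjusted p under 0.05 was 17 with TPM, against 9.93% of all genes. With quantile normalisation it was 20, against 9.19% of all, and the members' median was -0.28. PMVK was the 1 higher member under each of these settings. In bulk RNA, fewer cells that express a gene and less RNA per cell cannot be told apart.

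**Figure D1:**
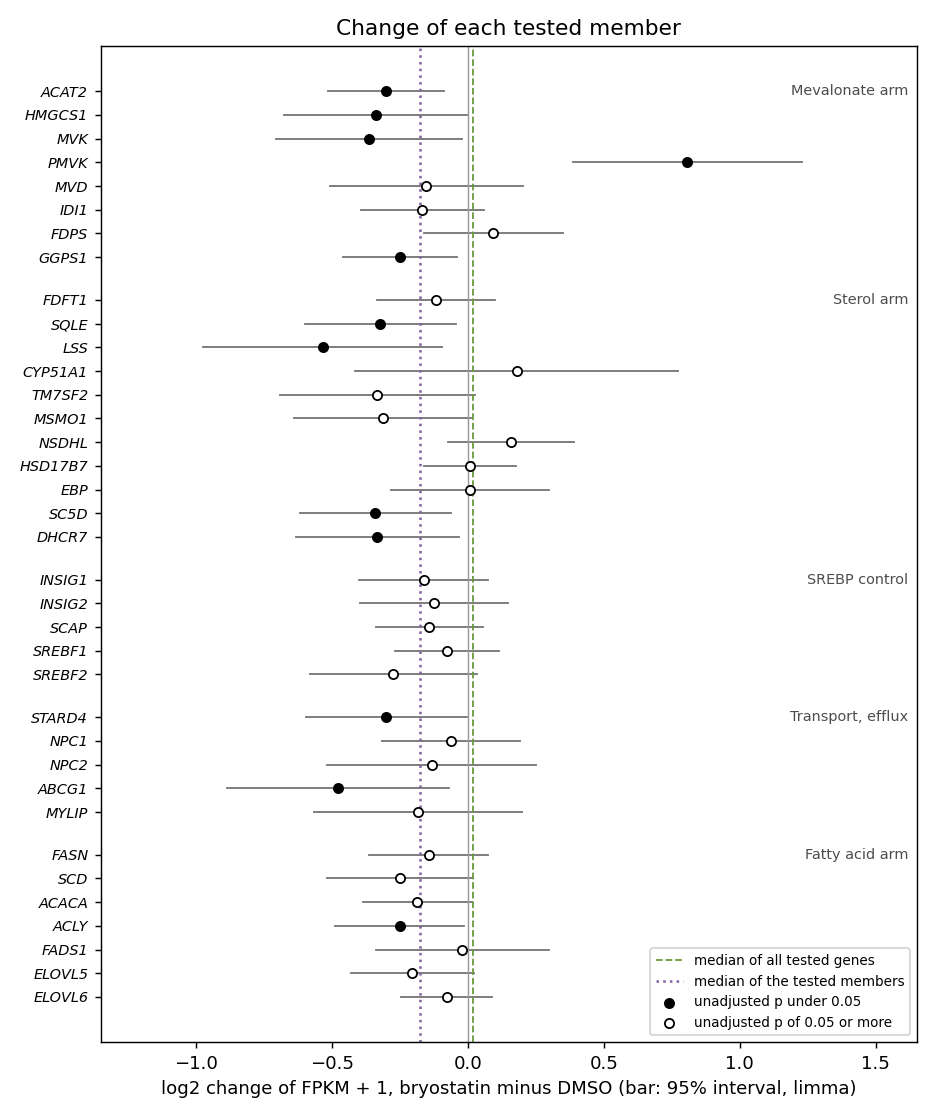
Log2 change of FPKM + 1, bryostatin minus DMSO, for the 36 tested members in pathway order, with 95% intervals from limma as bars. Filled points have an unadjusted p under 0.05; 30 points lie below 0, and PMVK stands alone at 0.81.

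In the mevalonate arm, the early enzymes had lower values with bryostatin and phosphomevalonate kinase had higher ones. At an unadjusted p under 0.05, 4 of its 8 genes were lower (50%, against 7.18% of all genes). PMVK was the 1 higher gene (12.5%, against 10.5% of all), and the median log2 change was -0.21. PMVK (ENSG00000163344, chromosome 1, 154924734 to 154936991, hg38), which makes mevalonate diphosphate, was at 76.1, 60.3 and 54.2 FPKM in the bryostatin libraries, against 31.3, 44.9 and 31.9 FPKM in the DMSO libraries. The groups did not overlap, and the lowest bryostatin library exceeded the highest DMSO library. PMVK averaged 63.5 ± 11.3 FPKM with bryostatin and 36.0 ± 7.69 FPKM in DMSO (SD, 3 libraries each), 1.75-fold higher on the log2(FPKM + 1) scale (log2 change 0.81, SE 0.18, adjusted p = 0.216 in limma). Its change stayed between 0.67 and 0.97 under the 16 alternative settings. PMVK has 1 annotated transcript and shares no exon bases with another gene.

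The kinase just before it, MVK (ENSG00000110921), which phosphorylates mevalonate, was at 8.70, 10.9 and 9.50 FPKM with bryostatin, against 15.7, 12.1 and 10.8 FPKM in DMSO. Here DMSO replicate 1 stood highest, and DMSO replicate 3 lay just under bryostatin replicate 2. MVK had a log2 change of -0.36 with a 95% interval from -0.71 to -0.022 (adjusted p = 0.265 in limma), and of -0.22 without DMSO replicate 1. The ratio of PMVK to MVK, both in FPKM, was therefore 8.75, 5.56 and 5.71 with bryostatin, against 1.997, 3.70 and 2.97 in DMSO. The lowest ratio among bryostatin libraries thus exceeded the highest among DMSO libraries. PMVK alone already separated the groups and MVK moved the other way, so the ratio adds no further support.

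HMGCS1 (ENSG00000112972, chromosome 5, 43289395 to 43313512), the cytosolic synthase that makes HMG-CoA, was the most abundant gene of this arm. It was at 86.4, 98.0 and 89.05 FPKM with bryostatin, against 141, 111 and 97.8 FPKM in DMSO. DMSO replicate 3 fell inside the bryostatin range, and the log2 change was -0.34 (SE 0.14, adjusted p = 0.282 in limma), or -0.19 without DMSO replicate 1. ACAT2, the cytosolic thiolase that joins 2 acetyl-CoA, was at 32.1, 29.2 and 30.2 FPKM with bryostatin, against 40.1, 38.8 and 34.8 FPKM in DMSO. All its bryostatin libraries lay below all DMSO libraries, with a log2 change of -0.30 (SE 0.090, adjusted p = 0.217 in limma). Of its exon bases, 52.3% also belong to genes on the opposite strand, of which the abundant TCP1 covers 9.23%, and the strand setting of the counting is not given in the sources used here. TCP1 was at 101, 95.9 and 88.7 FPKM with bryostatin, against 65.5, 69.1 and 89.5 FPKM in DMSO, so the opposite way to ACAT2.

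Further down, MVD, the decarboxylase, was at 45.9, 47.1 and 42.01 FPKM with bryostatin, against 55.1, 57.7 and 39.5 FPKM in DMSO. IDI1, the isomerase, was at 48.4, 44.6 and 49.96 FPKM with bryostatin, against 58.4, 53.0 and 49.6 FPKM in DMSO. Both overlapped between the groups through DMSO replicate 3, with log2 changes of -0.15 and -0.17. With 1 library left out, that of MVD ran from -0.32 without DMSO replicate 3 to -0.053 without DMSO replicate 2, being -0.086 without DMSO replicate 1, and that of IDI1 was -0.11 without DMSO replicate 1. FDPS, which makes farnesyl diphosphate at the branch towards sterols and prenyl groups, was at 56.6, 46.8 and 53.8 FPKM with bryostatin, against 45.6, 53.7 and 47.7 FPKM in DMSO. The libraries were interleaved, and its log2 change of 0.094 turned to -0.033 with quantile normalisation. It was 0.037 and 0.17 without bryostatin replicates 1 and 2, and 0.045 and 0.16 without DMSO replicates 1 and 2. GGPS1, which extends farnesyl to geranylgeranyl diphosphate, was at 2.42, 2.30 and 2.57 FPKM with bryostatin, against 3.30, 3.08 and 2.84 FPKM in DMSO. Its groups did not overlap, with a log2 change of -0.25 (SE 0.089, adjusted p = 0.241 in limma), on a mean of 224 reads per library. TBCE, a gene on the same strand, holds 37.3% of the exon bases of GGPS1, so the assignment of those reads is uncertain.

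In the sterol arm, from squalene to cholesterol, log2 changes were below 0 for the enzymes of squalene synthesis, oxidation and ring closure. Of the 8 genes after LSS, TM7SF2, MSMO1, SC5D and DHCR7 had changes below 0 and CYP51A1, NSDHL, HSD17B7 and EBP above 0. Limma gave an unadjusted p under 0.05 for 4 of its 11 genes, all lower (36.4%, against 7.18% of all genes). The median log2 change of the arm was -0.31. Without DMSO replicate 1 that median was -0.20. LSS (ENSG00000160285, chromosome 21, 46188141 to 46228824), which folds squalene epoxide into lanosterol, had the largest difference of the arm. It was at 39.9, 48.6 and 41.2 FPKM with bryostatin, against 77.8, 67.4 and 47.1 FPKM in DMSO. DMSO replicates 1 and 2 stood well above all other libraries, and DMSO replicate 3 lay inside the bryostatin range. LSS averaged 43.2 ± 4.68 FPKM with bryostatin and 64.1 ± 15.6 FPKM in DMSO (SD, 3 libraries each), 1.45-fold lower (log2 change -0.53, SE 0.19, adjusted p = 0.237 in limma). Without DMSO replicate 3 its log2 change was -0.74 with an adjusted p of 0.0443 in limma, the 1 member past the threshold in that fit, where 267 of all genes passed. Over the 16 alternatives its adjusted p ran from 0.0443 to 0.5998.

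SQLE, the squalene epoxidase that feeds LSS, was at 57.8, 64.1 and 63.2 FPKM with bryostatin, against 90.7, 71.0 and 71.7 FPKM in DMSO. DHCR7, the reductase of the last step in one branch, was at 52.2, 56.4 and 50.01 FPKM with bryostatin, against 80.1, 61.8 and 60.2 FPKM in DMSO. In both genes all bryostatin libraries lay below all DMSO libraries, and DMSO replicate 1 stood apart at the top. Their log2 changes were -0.32 and -0.33, with adjusted p = 0.245 and 0.253 in limma, and were -0.21 and -0.20 without DMSO replicate 1. SC5D, the sterol desaturase just before DHCR7, was at 12.03, 11.7 and 14.3 FPKM with bryostatin, against 18.1, 16.7 and 14.2 FPKM in DMSO, with a log2 change of -0.34 (adjusted p = 0.236 in limma). The highest bryostatin and the lowest DMSO library of SC5D were nearly level.

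FDFT1, the squalene synthase that commits farnesyl diphosphate to sterols and the most abundant gene of this arm, was at 74.4, 77.3 and 77.1 FPKM with bryostatin, against 91.5, 78.3 and 79.2 FPKM in DMSO. The groups did not overlap, but 2 of the DMSO libraries lay close to the bryostatin ones, and the log2 change was -0.12 with a 95% interval from -0.34 to 0.10, or -0.047 without DMSO replicate 1. MSMO1, which oxidises the methyl groups removed from the sterol ring and whose promoter holds 4 NF-Y boxes, was at 30.6, 38.1 and 34.7 FPKM with bryostatin, against 50.5, 42.6 and 36.8 FPKM in DMSO. TM7SF2, a sterol reductase, was at 16.2, 20.2 and 17.8 FPKM with bryostatin, against 27.4, 23.6 and 18.6 FPKM in DMSO. Their log2 changes were -0.31 and -0.33, with DMSO replicate 3 inside the bryostatin range in each, and -0.20 and -0.21 without DMSO replicate 1.

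NSDHL, a dehydrogenase of the demethylation steps, was at 20.3, 17.98 and 16.8 FPKM with bryostatin, against 17.2, 16.7 and 15.0 FPKM in DMSO, with overlapping groups and a log2 change of 0.16, which was 0.089 without bryostatin replicate 1 and 0.10 without DMSO replicate 3. EBP, a sterol isomerase, was at 40.1, 37.1 and 42.4 FPKM with bryostatin, against 43.9, 42.4 and 33.3 FPKM in DMSO. HSD17B7, a ketoreductase, and EBP had log2 changes of 0.0077 and 0.0072, values that turned negative in 6 and 7 of the 16 alternatives. With 1 library left out they ran from -0.015 to 0.029 for HSD17B7 and from -0.11 to 0.079 for EBP. HSD17B7 was nearly level across the libraries, at 11.7, 11.4 and 12.1 FPKM with bryostatin, against 11.7, 11.7 and 11.7 FPKM in DMSO. Its 95% interval of -0.16 to 0.18 bounds its change.

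CYP51A1, the lanosterol demethylase, was listed far below its neighbours in the pathway, at 2.91, 3.56 and 2.42 FPKM with bryostatin, against 3.44, 3.09 and 1.31 FPKM in DMSO. Of its exon bases, 79.4% are shared on the same strand with AC000120.2, a protein-coding gene model that was listed at 0 in all 6 libraries. How reads on shared exons were counted is not given in the sources used here, so the level of CYP51A1 is uncertain. Its log2 change was 0.18 (SE 0.25). It was 0.36, 0.30 and -0.12 without DMSO replicates 1, 2 and 3, and 0.073 and 0.28 without bryostatin replicates 2 and 3. Of the 39 members, 6 shared at least 10% of their exon bases with another gene: ACAT2, HMGCS1, IDI1, FDPS, GGPS1 and CYP51A1.

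**Figure D2:**
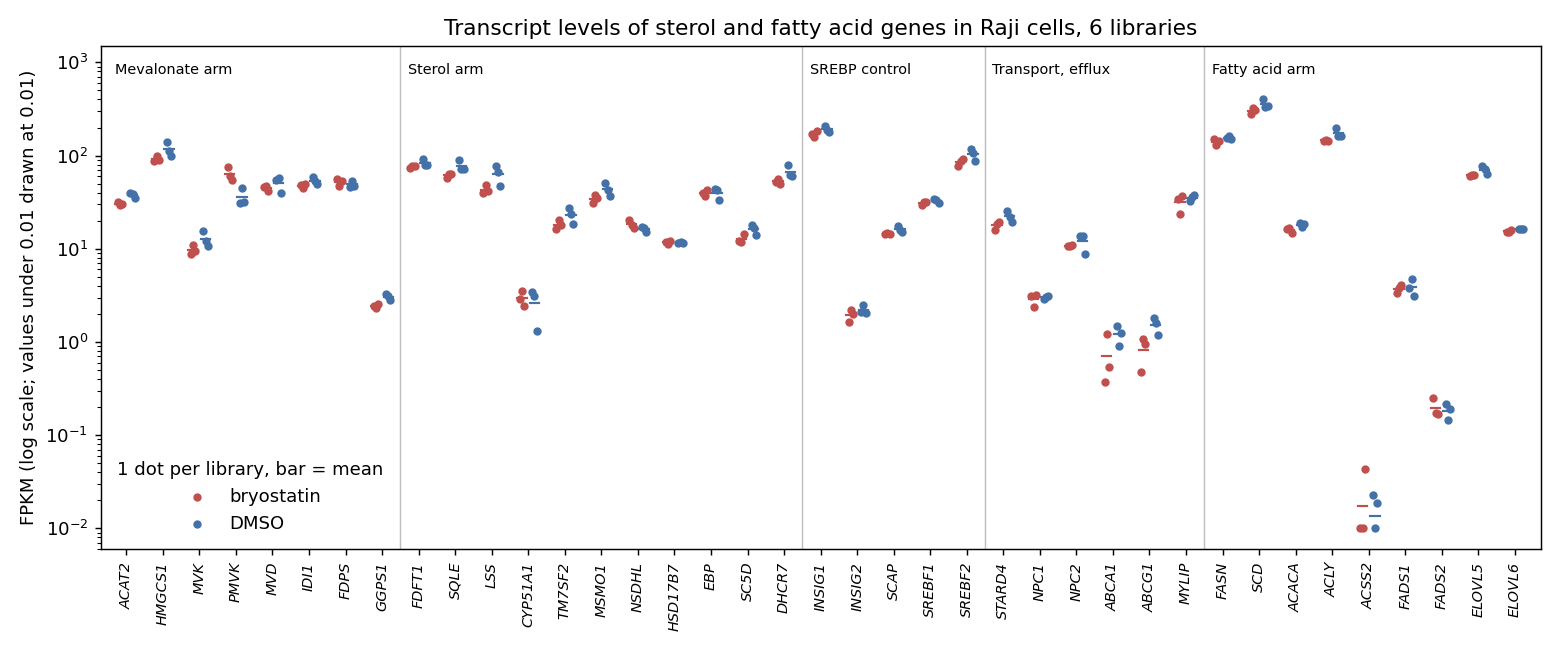
FPKM of the 39 members on a log scale, in pathway order, with bryostatin libraries left of DMSO libraries, 1 dot per library and a bar at the mean. Levels run from SCD at 276 to 404 FPKM down to ACSS2 at 0 to 0.043 FPKM, and CYP51A1 lies well below the other enzymes of the sterol arm.

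Among the control genes, all 5 log2 changes were below 0, with a median of -0.14. At an unadjusted p under 0.05 in limma 0 were lower (0%, against 7.18% of all genes). INSIG1 was the second most abundant member, at 171, 158 and 182 FPKM with bryostatin, against 207, 186 and 179.7 FPKM in DMSO. DMSO replicate 3 lay below the highest bryostatin library, and the log2 change was -0.16 with a 95% interval from -0.40 to 0.074 (adjusted p = 0.415 in limma), or -0.11 without bryostatin replicate 2 and -0.10 without DMSO replicate 1. INSIG2, the second gene of the pair, whose transcript is not driven by SREBP in mouse liver, was at 1.64, 2.23 and 1.99 FPKM with bryostatin, against 2.12, 2.496 and 2.03 FPKM in DMSO, with a log2 change of -0.12. It was -0.046 and -0.19 without bryostatin replicates 1 and 2, and -0.063 without DMSO replicate 2. The ratio of INSIG1 to INSIG2 was 104, 70.8 and 91.4 with bryostatin, against 97.8, 74.5 and 88.3 in DMSO, so INSIG1 made up nearly all INSIG transcript in both groups.

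SREBF2 (ENSG00000198911, chromosome 22, 41833079 to 41907308), whose protein mainly drives sterol synthesis and whose own promoter carries the sterol regulatory element core shown above, was at 77.5, 87.0 and 91.8 FPKM with bryostatin, against 118, 106 and 88.0 FPKM in DMSO. DMSO replicates 1 and 2 were highest, and DMSO replicate 3 lay inside the bryostatin range. SREBF2 averaged 85.4 ± 7.30 FPKM with bryostatin and 104 ± 15.2 FPKM in DMSO (SD, 3 libraries each), with a log2 change of -0.28 (SE 0.13, adjusted p = 0.317 in limma), or -0.18 without DMSO replicate 1. SREBF1, whose protein leans towards fatty acid genes, was at 29.5, 31.6 and 31.5 FPKM with bryostatin, against 34.1, 33.0 and 30.8 FPKM in DMSO, with a log2 change of -0.077, which ran from -0.12 without DMSO replicate 3 to -0.045 without DMSO replicate 1 or bryostatin replicate 1. SREBF2 exceeded SREBF1 in every library, by 2.63, 2.75 and 2.91 times with bryostatin, against 3.47, 3.22 and 2.86 times in DMSO. SCAP, the escort protein, was at 14.3, 14.9 and 14.5 FPKM with bryostatin, against 17.6, 15.9 and 15.1 FPKM in DMSO. Its groups did not overlap, and the log2 change was -0.14 (adjusted p = 0.399 in limma), or -0.085 without DMSO replicate 1.

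The genes of sterol transport and export were all low or moderate in level. The 5 that were tested had log2 changes below 0, with a median of -0.18. Of these 5, 2 were lower at an unadjusted p under 0.05 (40%, against 7.18% of all genes). ABCG1, 1 of these 2, averaged 0.830 FPKM with bryostatin and 1.54 FPKM in DMSO. It thus passed the filter of 1 FPKM only through the DMSO libraries. Such a filter favours lower values with bryostatin, so its place in these counts is no support. ABCG1, which hands cholesterol to lipoproteins and is an LXR target, was at 0.474, 1.07 and 0.946 FPKM with bryostatin, against 1.83, 1.60 and 1.18 FPKM in DMSO. All bryostatin libraries lay below all DMSO libraries. At levels this low the scale of log2(FPKM + 1) shrinks a change, which came to -0.48 there, and the ratio of mean FPKM was 0.540 (adjusted p = 0.243 in limma, 55 to 276 reads per library). ABCA1, the partner transporter, lay just under the level for testing, with a mean of 0.963 FPKM over all libraries against 1.18 FPKM for ABCG1 just above it. ABCA1 was at 0.376, 1.21 and 0.539 FPKM with bryostatin, against 1.48, 0.909 and 1.26 FPKM in DMSO, and its groups overlapped through bryostatin replicate 2. With no filter on low values its log2 change was -0.40, with a 95% interval from -0.94 to 0.14.

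STARD4, a soluble sterol carrier that SREBP proteins switch on, was at 15.7, 18.4 and 19.6 FPKM with bryostatin, against 25.6, 21.9 and 19.5 FPKM in DMSO. DMSO replicate 3 was level with the highest bryostatin library, and the log2 change was -0.30 (SE 0.13, adjusted p = 0.282 in limma). MYLIP, the most abundant gene of this group and a ubiquitin ligase for lipoprotein receptors that LXR switches on, was at 34.1, 23.8 and 36.6 FPKM with bryostatin, against 32.7, 35.7 and 37.8 FPKM in DMSO. Its difference rested on bryostatin replicate 2, since the log2 change of -0.18 was -0.0019 without that library and -0.30 without bryostatin replicate 3. NPC1 and NPC2, which lift cholesterol out of lysosomes, overlapped between the groups. NPC2 was at 10.7, 10.7 and 10.9 FPKM with bryostatin, against 13.8, 13.8 and 8.81 FPKM in DMSO, where replicate 3 stood lowest of all libraries. NPC1 and NPC2 had log2 changes of -0.062 and -0.13, and that of NPC1 was -0.10, 0.038 and -0.12 without bryostatin replicates 1, 2 and 3. That of NPC2 was -0.035, -0.033 and -0.33 without DMSO replicates 1, 2 and 3.

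In the fatty acid arm, 7 of 9 genes were tested, all with log2 changes below 0 and a median of -0.19, but the differences were small. Removal of the trend of change on gene length brought this median to -0.10, and quantile normalisation to -0.28. ACLY (ENSG00000131473, chromosome 17, 41866908 to 41930542), which makes cytosolic acetyl-CoA from citrate, was at 144, 147 and 145 FPKM with bryostatin, against 195, 163 and 163 FPKM in DMSO. The bryostatin libraries were close together and below all DMSO libraries, with a log2 change of -0.25 (SE 0.10, adjusted p = 0.265 in limma), or -0.17 without DMSO replicate 1. ACLY was the 1 gene of this arm at an unadjusted p under 0.05 (14.3%, against 7.18% of all genes lower). SCD, the stearoyl-CoA desaturase and the most abundant of all members, was at 276, 322 and 307 FPKM with bryostatin, against 404, 333 and 342 FPKM in DMSO. Its groups did not overlap either, with a log2 change of -0.25 (SE 0.11, adjusted p = 0.306 in limma), or -0.16 without DMSO replicate 1.

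The bryostatin libraries also lay below all DMSO libraries in FASN, ACACA, ELOVL5 and ELOVL6. FASN, the fatty acid synthase, was at 150.3, 130.05 and 144 FPKM with bryostatin, against 153, 164 and 151 FPKM in DMSO. ACACA, the carboxylase that supplies its malonyl-CoA, was at 16.3, 16.6 and 14.6 FPKM with bryostatin, against 18.7, 17.3 and 18.4 FPKM in DMSO. ELOVL5, an elongase of polyunsaturated chains, was at 59.9, 61.6 and 62.1 FPKM with bryostatin, against 77.0, 72.0 and 63.6 FPKM in DMSO. In these genes the nearest libraries of the groups were close to each other. ELOVL6, the elongase of saturated and monounsaturated chains, was at 15.3, 15.0 and 15.8 FPKM with bryostatin, against 16.2, 16.5 and 16.1 FPKM in DMSO. The log2 changes of FASN and ACACA were -0.14 and -0.19, and the elongases ELOVL5 and ELOVL6 had -0.20 and -0.079, so a full separation of the groups went with differences as small as 1.06-fold in ELOVL6. Without bryostatin replicate 2 the change of FASN was -0.086.

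Of the desaturases of long polyunsaturated fatty acids, FADS1 was at 3.38, 3.77 and 4.09 FPKM with bryostatin, against 3.76, 4.70 and 3.09 FPKM in DMSO. Its log2 change of -0.021 took either sign, from -0.14 without DMSO replicate 3 to 0.10 without DMSO replicate 2, with 0.036 and -0.073 without bryostatin replicates 1 and 3. FADS2, which acts before FADS1 in the same pathway, stayed below the level for testing, at 0.249, 0.172 and 0.168 FPKM with bryostatin, against 0.217, 0.145 and 0.190 FPKM in DMSO. ACSS2, which makes acetyl-CoA from acetate and so stands beside ACLY, had 0 to 5 reads per library and was listed at no more than 0.043 FPKM in any of them. In these cells ACLY was thus abundant and ACSS2 near 0 in both groups.

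By library, the highest levels of these genes lay in DMSO replicates 1 and 2. The mean log2 level of the 11 sterol arm genes, relative to the mean of all 6 libraries, was -0.13, -0.035 and -0.098 with bryostatin, against 0.28, 0.11 and -0.13 in DMSO. For the 8 genes of the mevalonate arm it was -0.0046, -0.054 and -0.068 with bryostatin, against 0.13, 0.11 and -0.12 in DMSO. By these means DMSO replicate 3 lay on the bryostatin side in both arms. The median of the mevalonate arm was -0.053 in DMSO replicate 3, above the -0.068, -0.086 and -0.12 with bryostatin. For the sterol arm that median was -0.059, inside the bryostatin range of -0.18 to -0.040. The mean of the 7 tested fatty acid genes was -0.10, -0.073 and -0.067 with bryostatin, against 0.15, 0.096 and -0.00030 in DMSO. There DMSO replicate 3 lay between the groups.

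DMSO replicate 1 was the highest of the 6 libraries for 23 of the 36 tested members, against 20.3% of all tested genes, and bryostatin replicate 1 was the lowest for 16, against 19.9% of all genes. In 22 of 36 members DMSO replicate 3 was closer to the bryostatin average than to the average of DMSO replicates 1 and 2. This held for 54.6% of all tested genes. By the same comparison DMSO replicate 1 was closer to bryostatin in 6 members, against 28.3% of all genes. DMSO replicate 2 was closer to it in 7 members, against 44.9% of all genes. The sum over the 19 synthesis enzymes was 715, 726 and 703 FPKM with bryostatin, against 903, 809.8 and 704 FPKM in DMSO. The bryostatin libraries and DMSO replicate 3 were thus close to each other, and DMSO replicate 1 carried the most.

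**Figure D3:**
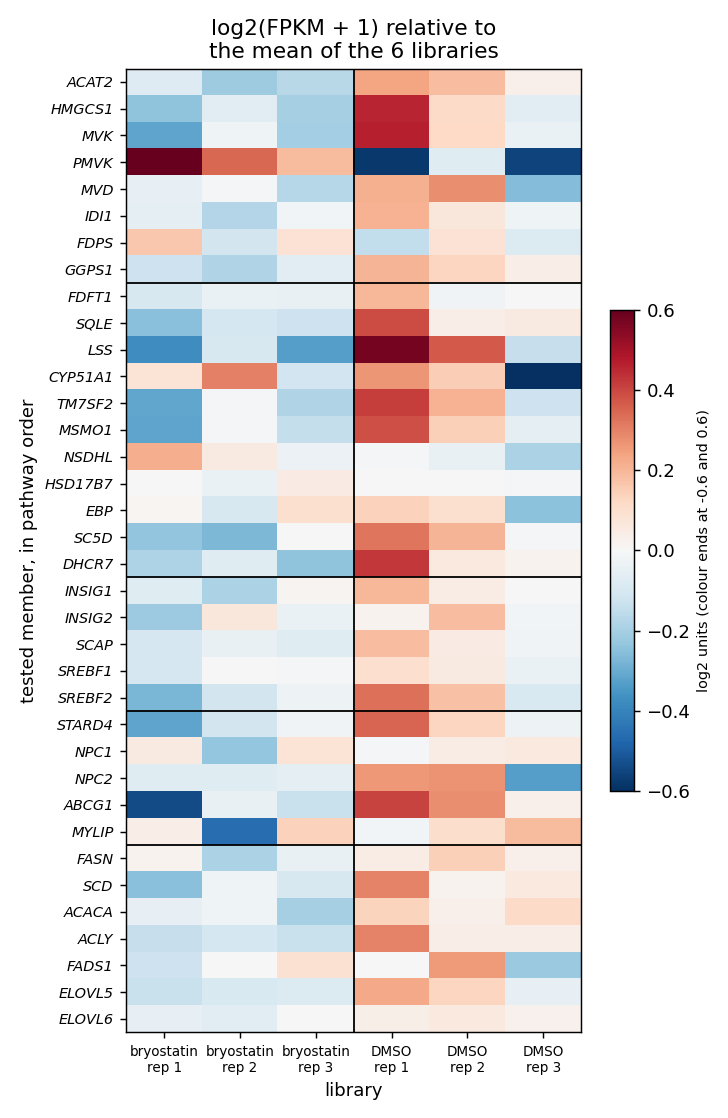
Level of each tested member in each library, as log2(FPKM + 1) relative to the mean of the 6 libraries, with bryostatin libraries on the left and members in pathway order. Red is above and blue below the mean; most rows are reddest in DMSO replicate 1, and PMVK runs the other way.

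A list of 15 proliferation genes had its lowest levels in the libraries where the sterol genes were highest. Its mean relative level was 0.46, 0.18 and 0.23 with bryostatin, against -0.66, -0.43 and 0.22 in DMSO. DMSO replicate 3 again lay with the bryostatin libraries. All 15 of these genes had a positive log2 change, against 53.9% of all tested genes, 10 (66.7%, against 10.5% of all) at an unadjusted p under 0.05 and 0 after adjustment in limma. Its part in the sterol result was not tested.

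**Figure D4:**
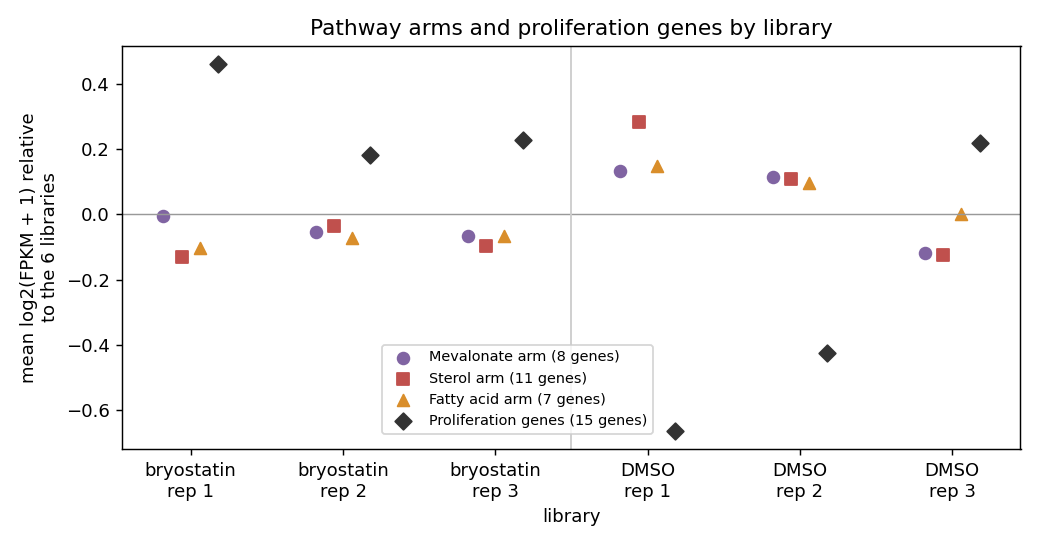
Mean log2(FPKM + 1) of 3 pathway arms and of 15 proliferation genes in each library, relative to the mean of the 6 libraries, with bryostatin libraries on the left. The arms are highest in DMSO replicates 1 and 2, where the proliferation genes are lowest at -0.66 and -0.43.

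Gene length moved with the change over the whole table. The median log2 change was 0.081 for tested genes under 1500 bases and -0.080 for those of 9000 bases or more. Among members, 22 of 23 genes of at least 4000 bases had a log2 change below 0, against 8 of 13 shorter ones. Of all tested genes, 34.1% to 39.9% had a change below 0 in the length classes under 4000 bases. In the classes of 4000 bases or more that share was 44.7% to 68.0%. PMVK was the shortest tested member, at 1280 bases, and its change was larger than the median of its length class. With the trend on length removed, the members' median was -0.22, and an unadjusted p under 0.05 was reached by 14 lower members, against 7.89% of all genes in that fit, and by 1 higher member, against 8.21% of all.

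Genes next to these pathways were spread over both directions, with a weaker lean to lower values than the members. Of 87 listed genes in 5 groups, 66 were tested. The log2 change was below 0 for 38 of them (57.6%, against 46.1% of all genes and 83.3% of members). In 11 every bryostatin library lay below every DMSO library (16.7%, against 10.7% of all). In 6 every bryostatin library lay above (9.09%, against 12.9% of all). An unadjusted p under 0.05 was reached by 5 with lower values (7.58%, against 7.18% of all genes) and 4 with higher values (6.06%, against 10.5% of all). These 2 shares were near or under the background, with 0 after adjustment in limma and a median log2 change of -0.022. Of 15 genes for the cutting of SREBP precursors and the sterol-controlled breakdown of enzymes, all were tested and 0 reached that level in either direction. SEC24B, a coat protein of vesicles that leave the endoplasmic reticulum, had a log2 change of -0.19 there. Among 12 tested genes that use prenyl groups, 2 were higher (16.7%, against 10.5% of all genes) and 0 lower. RCE1, which trims prenylated proteins, was at 7.199, 6.63 and 7.74 FPKM with bryostatin, against 4.40, 6.08 and 5.40 FPKM in DMSO. ICMT, which then methylates them, was at 44.0, 37.9 and 39.2 FPKM with bryostatin, against 28.8, 30.9 and 37.0 FPKM in DMSO. Both had groups that did not overlap, with log2 changes of 0.39 and 0.32 (adjusted p = 0.224 and 0.244 in limma).

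Among 13 tested genes of sterol transport, 2 were lower (15.4%, against 7.18% of all genes) and 0 higher by the same measure. LIPA, the lysosomal acid lipase that frees cholesterol from its esters, was at 9.95, 11.5 and 9.50 FPKM with bryostatin, against 13.8, 12.01 and 13.5 FPKM in DMSO. SIDT2, a lysosomal membrane protein, was at 3.47, 4.21 and 3.93 FPKM with bryostatin, against 7.03, 6.01 and 4.47 FPKM in DMSO. In both genes the groups did not overlap, with log2 changes of -0.32 and -0.47 (adjusted p = 0.226 and 0.227 in limma). In the LXR group 9 of 16 genes were tested, with 1 lower and 1 higher (11.1% each, against 7.18% and 10.5% of all genes). GPR183, a receptor for oxysterols, was at 2.14, 2.23 and 1.69 FPKM with bryostatin, against 4.2004, 2.71 and 3.67 FPKM in DMSO, a log2 change of -0.57 on 62 to 176 reads per library. RXRB, a partner receptor of LXR, was at 13.6, 14.2 and 14.1 FPKM with bryostatin, against 12.01, 12.9 and 10.9 FPKM in DMSO, a log2 change of 0.21. The groups did not overlap in either gene (adjusted p = 0.217 and 0.269 in limma). CH25H and CYP7B1, hydroxylases of oxysterol metabolism, were at 0 in every library. Of 17 tested genes of fatty acid activation and elongation, 2 were lower (11.8%, against 7.18% of all genes) and 1 higher (5.88%, against 10.5% of all). ACSL1, which activates long fatty acids to CoA esters, was at 31.5, 40.1 and 36.6 FPKM with bryostatin, against 55.1, 46.6 and 41.0 FPKM in DMSO. HSD17B12, a reductase of fatty acid elongation, was at 5.55, 4.65 and 5.46 FPKM with bryostatin, against 6.41, 6.28 and 6.08 FPKM in DMSO. Neither gene's groups overlapped, with log2 changes of -0.39 and -0.23 (adjusted p = 0.241 and 0.253 in limma).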

How the data were processed

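Polyadenylated RNA of 3 bryostatin and 3 DMSO libraries was measured, and groups were taken from the sample labels. The deposited values are FPKM computed by the authors. The submitters' processing notes name HISAT2 2.0.5 and featureCounts 1.5.0-p3, besides CASAVA, hg38 and DESeq2 1.20.0, without roles. Annotation release, strand setting and filters: not given in the sources used here. For all 39 members the deposited gene length equals the union of exons in GENCODE release 29, from which shared exon bases were counted. Reads per gene were recovered from FPKM and length, and 100% of values came out whole to within 0.001 reads. A gene at 0 could lie at up to 3 reads, 0.123 to 0.155 CPM at this depth, for counting error only.

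Genes that averaged 1 FPKM or more entered limma 3.58.1 (R 4.3.3) as log2(FPKM + 1), with moderation along an intensity trend and Benjamini-Hochberg adjustment over all 11071. For single values, 0.1 is the smallest two-sided p that exact permutation of 3 and 3 libraries allows. The fit was tested on simulated data, drawn independently for each gene and with larger changes than those of the members. Shifts shared by many genes of a library were not simulated, so that test does not cover them. No library pair was alike within sampling noise (chi-square of at least 13.6 per gene). The members and lists were chosen with earlier results of these data known. All members are reported; genes with an unadjusted p under 0.05, with groups that did not overlap, the INSIG and SREBF genes and the most abundant of each role are given with values, and 2 genes of smallest p from each neighbouring list, of which 1 is not reported here. MARCH6, which the table holds as a date, was matched by its gene ID. Alternatives covered the pseudocount, the filter, scaling, a length correction, voom weights, the replicate block and each library left out.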

Additional observations from a re-analysis of the deposited data

How the results depend on the processing

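Every setting tried gave 0 members past the adjusted threshold in limma except the fit without DMSO replicate 3, which gave 1 (LSS). Genes past it numbered 0 as reported, 1 with a pseudocount of 0.1, 1 with TPM and 0 to 267 when 1 library was left out. Members lower at an unadjusted p under 0.05 numbered 11 as reported, 17 with TPM, 20 with quantile normalisation and 1 to 18 with 1 library left out. With the replicate number as a block they numbered 2 (5.56%, against 3.68% of all genes in that fit), on fewer residual degrees of freedom, and the block changed no adjusted call. Same-numbered libraries did not deviate together (r from -0.32 to -0.11). What the number stands for is not given by the labels, and these values cannot tell whether such libraries share a culture or batch. The median log2 change of the members was -0.18 as reported, -0.28 with quantile normalisation and -0.25 to -0.15 with 1 library left out. That of the fatty acid arm was -0.24 with TPM, -0.28 with quantile normalisation and -0.10 with the length trend removed, and that of the mevalonate arm -0.31 to -0.15 with 1 library left out. Signs turned in 6 members, where the cause was not tested. HSD17B7 had -0.040 with TPM, -0.013 with median-of-ratios scaling, -0.048 with quantile normalisation, -0.022 with the length trend removed, -0.0090 with voom and -0.015 to 0.029 with 1 library left out. EBP had -0.041, -0.015, -0.081, -0.081 and -0.010 under these settings and -0.11 to 0.079 with 1 library left out. FDPS had -0.033 with quantile normalisation, FADS1 0.034 with the length trend removed and -0.14 to 0.10 with 1 library left out, NPC1 -0.12 to 0.038 and CYP51A1 -0.12 to 0.36 with 1 library left out. The other 30 tested members kept their sign in every setting run. Weakly expressed members rest on few reads, such as 55 to 276 per library for ABCG1.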
